A study of Mus musculus with 12 samples.

Results

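Cells take up and release amino acids through membrane carriers that are grouped into solute carrier (SLC) families by sequence. The genes described here are those whose symbol in the deposited table falls in 7 of these families, Slc1a, Slc3a, Slc6a, Slc7a, Slc36a, Slc38a and Slc43a. The rule used symbols and no measured value, and 62 of the 21899 genes in the table met it, with Slc7a2 and Slc7a11 left out by the rule. One of the 62, Slc7a6os, matches by its symbol but is named for lying opposite Slc7a6 and encodes no known carrier. Messenger RNA was measured by RNA sequencing in mouse bone marrow-derived macrophages, primary cells grown from wild-type marrow. There were 3 libraries in each of 4 groups, which were cells given PgLPS together with CS-PA/CNP (both agents), cells given PgLPS, cells given CS-PA/CNP, and control cells. PgLPS and CS-PA/CNP are the labels' abbreviations and are not spelled out there. The series title places the work in the treatment of periodontitis and hypertension with a hydrogel. The labels give no dose, time, strain, sex or age. They do not say whether the 3 libraries of a group stand for different mice or dishes, so a p-value here reflects only how these libraries scatter, and part of that scatter may be technical. The letters of the count columns were read as the groups, which the labels do not state outright, and library numbers are those of the columns.

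Amino acid carriers work in different ways. The heteromeric exchangers consist of the glycosylated heavy chain CD98, encoded by Slc3a2, joined to a light chain of the Slc7a family that moves the amino acid and swaps it for another on the opposite side of the membrane. The Slc1a, Slc6a and Slc38a families mostly use the sodium gradient to concentrate their substrates in the cell, whereas Slc43a proteins let their substrates pass down a gradient. Several Slc36a and Slc38a proteins sit in the lysosome, where they release amino acids from digested protein and report them to the growth kinase complex mTORC1. In macrophages, the supply of arginine, glutamine and other amino acids feeds nitric oxide, polyamine and energy metabolism during activation.

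Library totals lay between 14992707 and 20082900 counted reads. Levels are in counts per 1e+06 reads of the library (CPM), with each library's total adjusted by a TMM factor, a normalization that holds the bulk of genes level between libraries. The TMM factors were 0.853 to 0.901 in the libraries with PgLPS, alone or with CS-PA/CNP, and 1.11 to 1.16 in those without, and so differed by group. All 10 macrophage markers on the list used had reads, and their summed level was 28345 to 29791 CPM with both agents, 29378 to 31768 with PgLPS, 23008 to 24656 with CS-PA/CNP and 20416 to 21799.9 in control. Lyz2 made up most of that sum, with means of 17563 CPM with PgLPS and 15396 in control. Single markers went both ways. Cx3cr1 (29.0 and 269.7 CPM), Mrc1 (75.6 and 146) and Cd68 (1198 and 1494) were lower with PgLPS than in control. The means of the other macrophage markers were higher with PgLPS. The summed level of 8 fibroblast or stromal markers was 2.18 to 4.62 CPM with both agents, 6 to 54.1 with PgLPS, 0.718 to 2.10 with CS-PA/CNP and 0.472 to 2.81 in control, and the value of 54.1 came from PgLPS library 1. Summed levels of 9 neutrophil markers were 94.9 to 227 CPM over the 12 libraries, those of 8 dendritic cell markers 1.16 to 6.51, and those of 7 erythroid or megakaryocyte markers 155 to 612 CPM. The 8 lymphocyte markers summed to 0.442 to 3.75 CPM with Cd3d at 0 reads, and the 7 mast cell or basophil markers to 2.87 to 12.7 CPM with Tpsb2 at 0 reads. In bulk RNA, fewer cells of a type and less RNA per cell cannot be told apart.

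Of the 62 genes, 48 had at least 1 read and 14 had none. Those without reads were Slc1a7, Slc6a7, Slc6a11, Slc6a14, Slc6a16, Slc6a18, Slc6a21, Slc7a9, Slc7a10, Slc7a12, Slc38a3, Slc38a5, Slc38a8 and Slc38a11. Another 17 had reads but too few to test. The filter on low counts left 31, including Slc7a6os, and 21 of these averaged at least 5 CPM in their highest group. A gene that passed this filter only through the group where it was high had to differ between groups, so counts over the 31 genes describe them and support nothing further. By family, 9 of 14 Slc7a genes were tested, 6 of 11 Slc38a, 6 of 21 Slc6a, 4 of 7 Slc1a, 3 of 4 Slc36a, 2 of 3 Slc43a and 1 of 2 Slc3a. Slc3a1, the heavy chain that pairs with Slc7a9 in kidney, was among those with too few reads to test.

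Divided by the gene length in the deposited table, the messengers could be ranked against each other. In PgLPS cells Slc3a2 stood first with 257 ± 12 CPM per kilobase (SD, n = 3), Slc7a8 next with 190.2 ± 11 and Slc6a6 after it with 84.5 ± 4.9. Slc6a6 encodes the taurine carrier and Slc7a8 the CD98 light chain LAT2, which exchanges neutral amino acids. In control cells Slc6a6 came first with 119 ± 3.1 CPM per kilobase, ahead of Slc3a2 with 95.9 ± 6.5 and Slc7a8 with 66.2 ± 2.8. Libraries of neighbouring ranks did not overlap among these 3 genes in PgLPS or control cells. With both agents the order was that of PgLPS cells, with 249.6 ± 8.7, 158 ± 20 and 99.0 ± 6.7 CPM per kilobase. With CS-PA/CNP alone Slc6a6 at 111 ± 4.9 and Slc3a2 at 109 ± 2.2 CPM per kilobase overlapped. These 3 messengers together held 68.7% of the summed per-kilobase level of the 30 tested carrier genes with both agents, 70.5% with PgLPS, 54.0% with CS-PA/CNP and 54.5% in control. The summed level was 738 ± 42 CPM per kilobase with both agents, 754 ± 19 with PgLPS, 544 ± 19 with CS-PA/CNP and 517 ± 3.2 in control. Scaled to library totals alone the same sums were 661 ± 42, 652 ± 22, 609.7 ± 23 and 596 ± 6.3, so the gap between PgLPS and control was smaller on that scale. Slc6a8, the creatine carrier, and Slc43a2, a carrier of branched-chain and aromatic amino acids, held ranks 4 and 5 with both agents, with CS-PA/CNP and in control. In PgLPS cells Slc43a2 stood at rank 9, below Slc7a7, Slc36a1, Slc38a10 and Slc38a7, and its libraries overlapped those of Slc38a7.

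**Figure D1:**
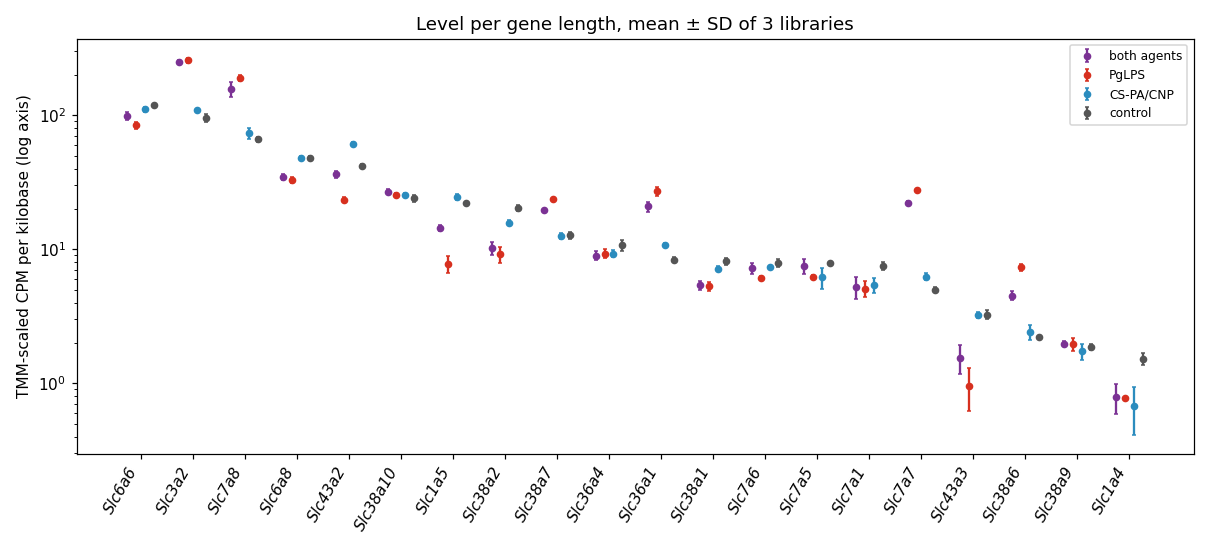
Level of the 20 carrier genes with at least 5 CPM in their highest group, in TMM-scaled CPM per kilobase of gene length on a log axis, as mean ± SD of 3 libraries for both agents, PgLPS, CS-PA/CNP and control. Slc3a2 reached 257 CPM per kilobase in PgLPS cells and 95.9 in control, while Slc6a6 had 84.5 in PgLPS cells and 119 in control.

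In PgLPS cells against control, 9 of the 31 tested genes were called higher, 15 were called lower and 7 were not called by edgeR's quasi-likelihood test at a Benjamini-Hochberg (BH) adjusted p under 0.05 over all tested genes. That is 77.4% called, against 63.8% of all 11656 genes tested, with 32.2% of all genes called higher and 31.6% lower. Called changes of at least 2-fold were seen in 8 higher and 6 lower genes, 45.2% of the 31 against 24.4% of all genes tested. The median log2 fold change was -0.34 over the 31 genes and 0.00 over all genes. The rises included the CD98 heavy chain, 2 of its light chains and 3 carriers of the Slc36a and Slc38a families, Slc36a1, Slc38a6 and Slc38a7. The falls included Slc1a4, Slc1a5, Slc38a1 and Slc38a2, so genes of the Slc38a family went both ways. Without PgLPS library 1, where the stromal markers summed to 54.1 CPM, the same 9 genes were called higher and 14 of the 15 lower. Every called gene with a mean of at least 5 CPM had non-overlapping libraries. Overlap was not counted over all genes, so this describes these genes and does not set them apart from others. Scaling to library totals alone moved the median of all genes by -0.41 on the log2 scale and left the 9 genes higher and the 15 lower, with another 4 called lower.

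**Figure D2:**
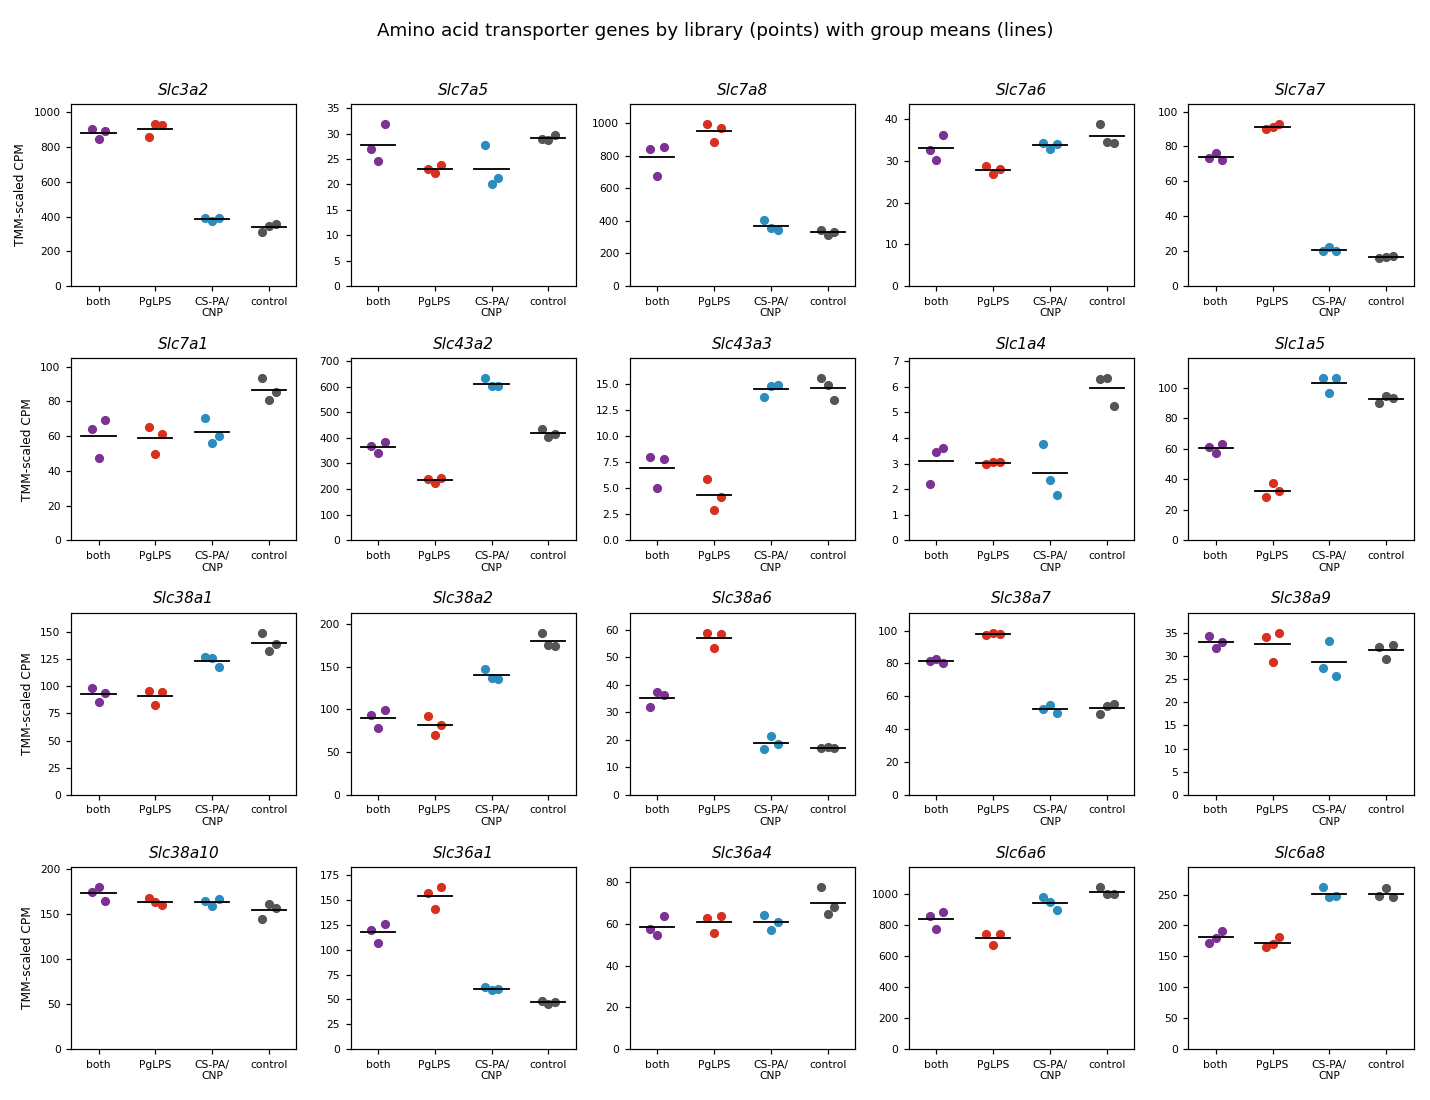
Level in each library, in TMM-scaled CPM, of the 20 carrier genes with at least 5 CPM in their highest group, with lines at the group means and groups from left to right both agents, PgLPS, CS-PA/CNP and control. Slc7a7 had 89.9 to 92.9 CPM in PgLPS libraries and 16.1 to 17.3 in control libraries, and Slc1a5 had 28.1 to 37.2 and 89.6 to 94.7.

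The CD98 heavy chain Slc3a2 (ENSMUSG00000010095, chromosome 19) had 857, 933 and 927 CPM in PgLPS libraries, against 313, 345 and 357 CPM in control libraries. The groups lay far apart, and the log2 fold change was 1.42 ± 0.06 (SE) with an edgeR adjusted p of 1.05e-13. Its light chain Slc7a8 (ENSMUSG00000022180, chromosome 14) had 996, 887 and 973 CPM in PgLPS libraries, against 344, 316 and 333 CPM in control. It rose by a similar amount, 1.52 ± 0.08 (edgeR adjusted p = 7.89e-12). The light chain Slc7a7 (ENSMUSG00000000958, chromosome 14), known as y+LAT1, exports arginine and lysine in exchange for neutral amino acids and sodium. Slc7a7 had 89.9, 90.9 and 92.9 CPM in PgLPS libraries, against 16.1, 16.4 and 17.3 CPM in control libraries. Every PgLPS library was more than 5 times as high as every control library, and the log2 fold change was 2.46 ± 0.07 (edgeR adjusted p = 5.36e-16). Slc7a7 overlaps Oxa1l on the opposite strand, which had 10092 reads in all against 9797 for Slc7a7. Whether the counting used strand is not stated in these sources, and reads of the 2 genes cannot be told apart where they overlap.

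Another 2 light chains, Slc7a5 and Slc7a6, fell by small amounts. Slc7a5 (ENSMUSG00000040010, chromosome 8), or LAT1, brings large neutral amino acids such as leucine into the cell, and had 23.0, 22.3 and 23.8 CPM in PgLPS libraries, against 29.0, 28.7 and 29.7 CPM in control. Slc7a6 (ENSMUSG00000031904, chromosome 8), or y+LAT2, is an exchanger like Slc7a7, and had 28.8, 26.8 and 28.1 CPM in PgLPS libraries, against 38.9, 34.6 and 34.4 CPM in control. Neither gene's groups overlapped, and the log2 fold changes were -0.34 ± 0.12 (edgeR adjusted p = 0.0166) for Slc7a5 and -0.37 ± 0.09 (edgeR adjusted p = 0.00106) for Slc7a6. Slc7a11, a further light chain, was left out by the rule and is in none of the sums and ratios that follow. Per kilobase, these 4 light chains summed to 195 ± 21 CPM with both agents, 230 ± 12 with PgLPS, 93.5 ± 7.8 with CS-PA/CNP and 86.9 ± 3.3 in control. The ratio of these light chains to the heavy chain was 0.782 ± 0.059 with both agents, 0.898 ± 0.082 with PgLPS, 0.856 ± 0.067 with CS-PA/CNP and 0.910 ± 0.090 in control. Slc7a7 made up 11.5 ± 1.6% of the light chain sum with both agents, 12 ± 0.65% with PgLPS, 6.74 ± 0.70% with CS-PA/CNP and 5.78 ± 0.31% in control. Slc7a5 made up 3.84 ± 0.28%, 2.70 ± 0.092%, 6.60 ± 0.66% and 9.04 ± 0.31% in the same order of groups. Slc7a8 held the most in every group, 80.9 ± 1.8% with both agents, 82.6 ± 0.78% with PgLPS, 78.7 ± 0.67% with CS-PA/CNP and 76.1 ± 0.38% in control. These shares and ratios come from within each library and so do not depend on the scaling between libraries, and they are descriptions with no test.

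**Figure D3:**
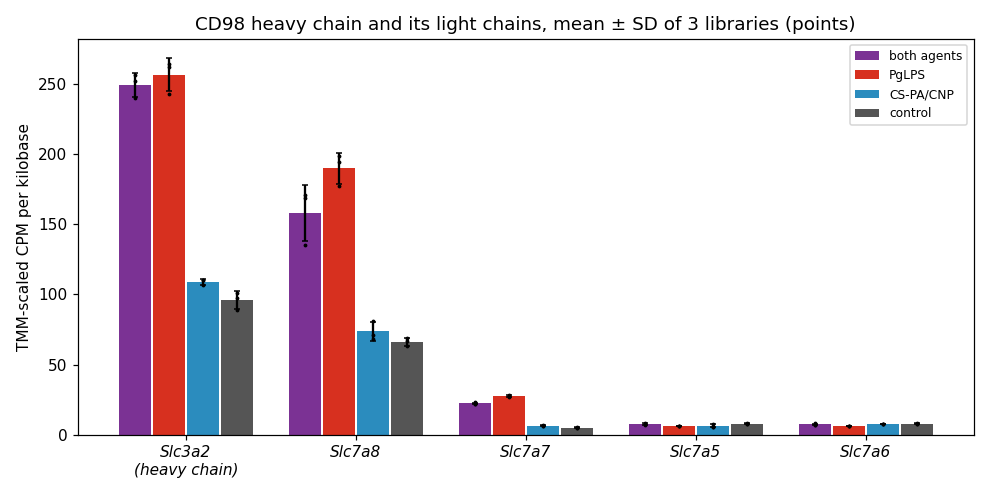
Level of the CD98 heavy chain Slc3a2 and the 4 light chains Slc7a8, Slc7a7, Slc7a5 and Slc7a6, in TMM-scaled CPM per kilobase, for both agents, PgLPS, CS-PA/CNP and control. Bars are means, error bars are SD and points are the 3 libraries, and Slc7a8 stood at 190.2 CPM per kilobase in PgLPS cells and 66.2 in control.

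Promoter sequence was available from RefSeq (GRCm38.p6, 250 bases before to 50 after each annotated start) for 22 of the 31 tested genes, in 36 promoters. Both strands were searched for 3 motifs, with overlaps between motifs allowed. TGATGNAA, the core of the C/EBP-ATF element through which ATF4 acts on amino acid starvation genes, was in 3.97% of the 32851 RefSeq promoters. Of the 36 promoters it was in 3, which belonged to Slc1a4 and Slc7a7. TGACNNNGC, the core of the antioxidant response element, was in 12.4% of all promoters. Of the 36 it was in 7, which belonged to Slc36a1, Slc38a2, Slc6a9, Slc7a1 and Slc7a6. TGAGTCA, the AP-1 site, was in 5.20% of all promoters and in 1 of the 36, a promoter of Slc7a1. Promoters are given for Slc7a7, Slc7a8 and Slc3a2, the CD98 chains among the 31 genes whose messengers rose with PgLPS, and for Slc1a4, a carrier of the opposite direction that holds the same element as Slc7a7. Capitals mark TGATGNAA or its reverse complement, and a match is a description of the letters, not a bound site. The Slc7a7 promoter, 1 of 5 listed for this gene, held 2 copies, at chr14:54417895-54418194 on the minus strand. A listed promoter that overlaps it held 1 of the same copies, and the remaining ones held none. The Slc1a4 promoter at chr11:20332664-20332963 on the minus strand held 1 copy in reverse. Those of Slc7a8 (chr14:54781837-54782136, minus strand) and Slc3a2 (chr19:8713848-8714147, minus strand) held none of the 3 motifs in this window.
Slc7a7: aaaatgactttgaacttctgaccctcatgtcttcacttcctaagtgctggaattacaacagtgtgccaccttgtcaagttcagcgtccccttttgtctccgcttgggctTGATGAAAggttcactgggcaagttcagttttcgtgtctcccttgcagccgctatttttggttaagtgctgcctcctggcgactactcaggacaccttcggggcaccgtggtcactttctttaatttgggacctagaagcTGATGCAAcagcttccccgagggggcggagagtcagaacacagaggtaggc
Slc1a4: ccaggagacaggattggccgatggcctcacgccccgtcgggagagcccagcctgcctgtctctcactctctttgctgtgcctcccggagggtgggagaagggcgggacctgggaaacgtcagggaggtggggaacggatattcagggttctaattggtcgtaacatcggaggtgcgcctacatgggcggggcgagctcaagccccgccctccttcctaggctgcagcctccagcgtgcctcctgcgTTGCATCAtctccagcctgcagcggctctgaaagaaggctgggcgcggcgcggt
Slc7a8: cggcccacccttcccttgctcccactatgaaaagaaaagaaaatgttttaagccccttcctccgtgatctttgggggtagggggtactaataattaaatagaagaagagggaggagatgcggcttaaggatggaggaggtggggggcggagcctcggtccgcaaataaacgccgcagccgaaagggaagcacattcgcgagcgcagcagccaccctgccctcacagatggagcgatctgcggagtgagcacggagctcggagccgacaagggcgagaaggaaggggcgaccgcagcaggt
Slc3a2: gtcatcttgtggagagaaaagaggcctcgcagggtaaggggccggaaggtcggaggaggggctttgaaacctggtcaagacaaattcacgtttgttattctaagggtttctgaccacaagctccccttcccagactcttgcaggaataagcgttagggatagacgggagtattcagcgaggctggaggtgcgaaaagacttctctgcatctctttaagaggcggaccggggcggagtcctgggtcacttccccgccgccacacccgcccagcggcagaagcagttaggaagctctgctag

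Slc1a5 (ENSMUSG00000001918, chromosome 7), the sodium-dependent glutamine carrier ASCT2, had 28.1, 37.2 and 32.1 CPM in PgLPS libraries, against 89.6, 94.7 and 92.9 CPM in control libraries. No libraries overlapped, and the log2 fold change was -1.51 ± 0.09 (edgeR adjusted p = 1.52e-11). Its relative Slc1a4 (ENSMUSG00000020142, chromosome 11), which carries alanine, serine and cysteine, had 2.97, 3.05 and 3.06 CPM in PgLPS libraries, against 6.29, 6.33 and 5.26 CPM in control, a fall of 0.98 ± 0.25 on the log2 scale (edgeR adjusted p = 0.00193). Slc38a2 (ENSMUSG00000022462, chromosome 15), a sodium-coupled carrier of glutamine and alanine whose messenger is known to rise on amino acid starvation, had 92.7, 69.5 and 81.3 CPM in PgLPS libraries, against 189.6, 175 and 174 CPM in control. The lowest control library was far above the highest PgLPS library, with a log2 fold change of -1.15 ± 0.09 (edgeR adjusted p = 3.26e-09). The related carrier Slc38a1 (ENSMUSG00000023169, chromosome 15) had 96.0, 83.2 and 95.1 CPM in PgLPS libraries, against 149.6, 133 and 139 CPM in control (log2 fold change -0.62 ± 0.07, edgeR adjusted p = 5.64e-07). All 4 of these carriers were lower in each PgLPS library than in each control library. How many of all genes separate in this way was not counted.

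Slc7a1 (ENSMUSG00000041313, chromosome 5), the uniporter CAT1 for arginine and lysine, had 65.4, 49.7 and 61.2 CPM in PgLPS libraries, against 93.3, 80.9 and 85.3 CPM in control. It fell by 0.56 ± 0.12 on the log2 scale (edgeR adjusted p = 0.000617). Slc7a2, the inducible arginine carrier that the rule left out, averaged 1029 ± 170 CPM in PgLPS cells and 10.3 ± 1.8 CPM in control cells. Slc43a2 (ENSMUSG00000038178, chromosome 11), or LAT4, had 239, 224 and 243 CPM in PgLPS libraries, against 436, 405 and 416 CPM in control. Slc43a3 (ENSMUSG00000027074, chromosome 2), known for carrying purine nucleobases, had 5.87, 2.86 and 4.14 CPM in PgLPS libraries, against 15.5, 14.9 and 13.4 CPM in control. Both fell with no overlap of libraries, by 0.83 ± 0.06 for Slc43a2 (edgeR adjusted p = 2.76e-10) and by 1.78 ± 0.20 for Slc43a3 (edgeR adjusted p = 2.48e-07) on the log2 scale.

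The remaining Slc36a and Slc38a genes went different ways. Slc36a1 (ENSMUSG00000020261, chromosome 11), a proton-coupled carrier that exports small amino acids from the lysosome, had 157, 141 and 163 CPM in PgLPS libraries, against 48.7, 45.2 and 47.6 CPM in control, and rose by 1.70 ± 0.08 on the log2 scale (edgeR adjusted p = 3.35e-13). Slc38a7 (ENSMUSG00000036534, chromosome 8), which exports glutamine and asparagine from the lysosome, had 97.4, 98.7 and 98.1 CPM in PgLPS libraries, against 49.3, 53.9 and 55.4 CPM in control, and rose by 0.89 ± 0.07 (edgeR adjusted p = 6.97e-10). Slc38a6 (ENSMUSG00000044712, chromosome 12) had 59.0, 53.4 and 58.4 CPM in PgLPS libraries, against 17.1, 17.2 and 17.1 CPM in control, and rose by 1.73 ± 0.10 (edgeR adjusted p = 9.05e-12). In each of these 3 genes the PgLPS libraries stood well above the control libraries. Slc38a9 (ENSMUSG00000047789, chromosome 13), the lysosomal arginine sensor of mTORC1, had 34.2, 28.7 and 35.1 CPM in PgLPS libraries, against 32.0, 29.4 and 32.4 CPM in control. Slc38a10 (ENSMUSG00000061306, chromosome 11) had 168, 163 and 160 CPM in PgLPS libraries, against 144, 161 and 157 CPM in control. Both overlapped between groups and were not called, with log2 fold changes of 0.06 ± 0.10 for Slc38a9 and 0.09 ± 0.06 for Slc38a10, and both took a negative sign when libraries were scaled to their totals alone. Slc36a4 (ENSMUSG00000043885, chromosome 9), a carrier of proline and tryptophan, had 62.9, 55.7 and 63.9 CPM in PgLPS libraries, against 77.7, 64.8 and 68.1 CPM in control. Its fall of 0.21 ± 0.09 on the log2 scale (edgeR adjusted p = 0.0424) was no longer called without PgLPS library 2 (adjusted p = 0.165), control library 1 (adjusted p = 0.164) or both-agents library 1 (adjusted p = 0.0513).

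In the Slc6a family, Slc6a6 (ENSMUSG00000030096, chromosome 6) had 739, 667 and 739 CPM in PgLPS libraries, against 1041, 995 and 995 CPM in control. Slc6a8 (ENSMUSG00000019558, chromosome X) had 165, 170.3 and 181 CPM in PgLPS libraries, against 247, 261 and 246 CPM in control. Both fell without overlap, by 0.50 ± 0.06 for the taurine carrier (edgeR adjusted p = 7.44e-07) and by 0.55 ± 0.06 for the creatine carrier (edgeR adjusted p = 1.78e-07) on the log2 scale. The other tested Slc6a genes stayed under 5 CPM in all groups. Slc6a12, the betaine and GABA carrier, had 1.75 to 3.18 CPM in PgLPS libraries, against 0.0559 to 0.105 CPM in control, and its log2 fold change was 4.78 ± 0.48 (edgeR adjusted p = 6.54e-08). Slc6a4, the serotonin carrier, had 0.780 to 1.08 CPM in PgLPS libraries, against 0.251 to 0.314 CPM in control (1.66 ± 0.48, edgeR adjusted p = 0.00548). Slc6a19, a neutral amino acid carrier best known from gut and kidney, had 0.240 to 0.762 CPM in PgLPS libraries, against 1.62 to 2.07 CPM in control (-1.82 ± 0.39, edgeR adjusted p = 0.000487). Control levels of Slc6a12 and Slc6a4, and PgLPS levels of Slc6a19, were too low for that group to pass the filter on low counts alone. These genes passed through other libraries, so their calls here are not independent of the filter.

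Another 3 genes with few reads were called. Slc7a4, for which no transport has been shown, had 0.0600 to 0.152 CPM in PgLPS libraries, against 2.51 to 3.24 CPM in control, with a log2 fold change of -4.58 ± 0.44 (edgeR adjusted p = 2.94e-08). It overlaps P2rx6 on the opposite strand, which had 35 reads in all against 304 for Slc7a4. PgLPS levels of Slc7a4 were too low for that group to pass the filter on low counts alone. Slc7a4 passed through libraries without PgLPS, so its call here is not independent of the filter. Slc1a2, a glutamate carrier of astrocytes, had 47 reads over the PgLPS libraries and 1 over the control libraries, a ratio of 59.1 in CPM with an exact 95% counting interval of 10.1 to 2390. Slc1a2 passed the filter on low counts through the PgLPS libraries alone, so its call, ratio and interval are not independent of the filter. Slc36a2 had 1 read over the PgLPS libraries and 19 over the control libraries, all in control libraries 2 and 3. The ratio was 15.1 (2.40 to 627) in favour of control, the libraries overlapped, and the call (edgeR adjusted p = 0.0412) was lost without PgLPS library 1 (adjusted p = 0.0937), PgLPS library 3 (0.123), control library 2 (0.0698) or control library 3 (0.18). Counting intervals cover counting error only, since PCR copies of a molecule are not independent. The tested genes without a call in this comparison, besides Slc38a9 and Slc38a10, were Slc1a3, Slc6a9, Slc7a3, Slc7a15 and Slc7a6os.

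**Figure D4:**
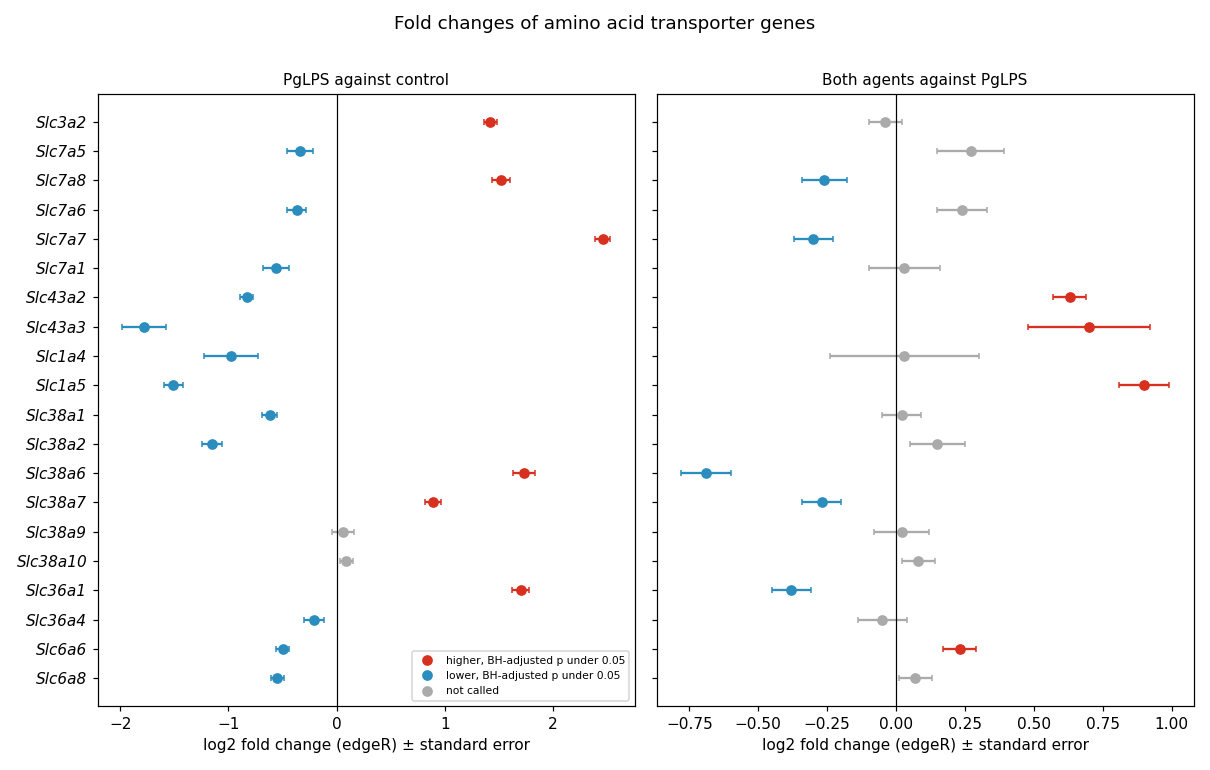
Log2 fold change ± standard error from edgeR of the 20 carrier genes with at least 5 CPM in their highest group, in PgLPS cells against control (left) and with both agents against PgLPS (right). The axes differ in range: values run between -1.78 (Slc43a3) and 2.46 (Slc7a7) on the left, and between -0.69 (Slc38a6) and 0.90 (Slc1a5) on the right.

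With both agents against PgLPS alone, the question was what CS-PA/CNP did to these messengers in PgLPS-treated cells. By edgeR's test 7 of the 31 genes were called higher, 6 lower and 18 were not called, 41.9% called against 19.5% of all genes tested, where 9.42% were higher and 10% lower. The median log2 fold change was 0.03 over the 31 genes and -0.01 over all genes. This comparison and that of PgLPS with control share the PgLPS libraries, so the directions of the 2 comparisons are not independent. The count of 7 higher genes depended on single libraries. It was 3 without both-agents library 3, and 4 without PgLPS library 2 or PgLPS library 3.

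Among plasma membrane carriers, Slc1a5 had 61.4, 57.3 and 62.9 CPM with both agents, against 28.1, 37.2 and 32.1 CPM with PgLPS. All libraries with both agents were above all PgLPS libraries, by 0.90 ± 0.09 on the log2 scale (edgeR adjusted p = 4.87e-07). Slc43a2 had 369.7, 342 and 382 CPM with both agents, against 239, 224 and 243 CPM with PgLPS, and was higher by 0.63 ± 0.06 (edgeR adjusted p = 1.92e-07). The taurine carrier Slc6a6 had 856, 773 and 882 CPM with both agents, against 739, 667 and 739 CPM with PgLPS. It was higher by 0.23 ± 0.06 (edgeR adjusted p = 0.0110), a call lost without both-agents library 3 (adjusted p = 0.0646). Slc43a3 had 8.01, 5.03 and 7.77 CPM with both agents, against 5.87, 2.86 and 4.14 CPM with PgLPS. Its libraries overlapped, and its call (0.70 ± 0.22, edgeR adjusted p = 0.0268) was lost without both-agents library 1 (adjusted p = 0.115), both-agents library 3 (0.0956), PgLPS library 2 (0.114) or PgLPS library 3 (0.0829), and with only the groups compared (0.101).

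Among Slc38a6, Slc36a1 and Slc38a7, which had risen with PgLPS, Slc38a6 had 32.1, 37.4 and 36.2 CPM with both agents, against 59.0, 53.4 and 58.4 CPM with PgLPS. It was lower by 0.69 ± 0.09 on the log2 scale without overlap (edgeR adjusted p = 1.76e-05). The lysosomal carrier Slc36a1 had 120.0, 107 and 126 CPM with both agents, against 157, 141 and 163 CPM with PgLPS (-0.38 ± 0.07, edgeR adjusted p = 0.000782). Slc38a7 had 81.4, 82.7 and 80.0 CPM with both agents, against 97.4, 98.7 and 98.1 CPM with PgLPS (-0.27 ± 0.07, edgeR adjusted p = 0.00573). These 3 genes were lower in each library with both agents than in each PgLPS library, and overlap was not counted over all genes.

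Among the CD98 chains, Slc7a7 had 73.2, 76.1 and 72.4 CPM with both agents, against 89.9, 90.9 and 92.9 CPM with PgLPS, and was lower by 0.30 ± 0.07 on the log2 scale (edgeR adjusted p = 0.00233). Slc7a8 had 844, 678 and 856 CPM with both agents, against 996, 887 and 973 CPM with PgLPS. Its libraries did not overlap, but library 2 with both agents stood apart from the other two, and the fall of 0.26 ± 0.08 (edgeR adjusted p = 0.0287) came to 0.16 without that library (adjusted p = 0.129). The Slc7a8 call was also lost without PgLPS library 1 (adjusted p = 0.0941), PgLPS library 3 (0.0946) or control library 3 (0.0502), with scaling to library totals alone (0.0923) and with only the groups compared (0.0731). The heavy chain Slc3a2 had 906, 847 and 889.9 CPM with both agents, against 857, 933 and 927 CPM with PgLPS. These overlapped, and its log2 fold change of -0.04 ± 0.06 (edgeR adjusted p = 0.693) was not called. Slc7a6 had 32.7, 30.3 and 36.3 CPM with both agents, against 28.8, 26.8 and 28.1 CPM with PgLPS, and Slc7a5 had 27.0, 24.6 and 31.9 against 22.3 to 23.8 CPM. In both genes the libraries did not overlap, and the edgeR adjusted p of 0.0568 for Slc7a6 and 0.123 for Slc7a5 did not pass. The call of Slc7a6 was gained without both-agents library 2 (adjusted p = 0.0266) or control library 1 (0.0438), and with scaling to library totals alone (0.0238).

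Slc1a4, Slc38a1, Slc38a2 and Slc7a1, which had fallen with PgLPS, were not called with both agents against PgLPS. Slc38a2 had 93.1, 78.5 and 99.1 CPM with both agents (log2 fold change 0.15 ± 0.10, edgeR adjusted p = 0.303), Slc38a1 had 98.4, 85.2 and 94.1 CPM (0.02 ± 0.07), Slc7a1 had 63.9, 47.6 and 69.1 CPM (0.03 ± 0.13) and Slc1a4 had 2.21, 3.47 and 3.61 CPM (0.03 ± 0.27). All 4 overlapped with the PgLPS libraries. Slc6a8, Slc36a4, Slc38a9 and Slc38a10 were not called either, with log2 fold changes between -0.05 and 0.08. Of the genes under 5 CPM, the glycine carrier Slc6a9 had 1.56 to 3.41 CPM with both agents, against 0.180 to 0.534 CPM with PgLPS. It was higher by 2.59 ± 0.51 on the log2 scale (edgeR adjusted p = 0.000998). PgLPS levels of Slc6a9 were too low for that group to pass the filter on low counts alone, so this call is not independent of the filter. Slc1a2 had 0.0651 to 0.272 CPM with both agents, against 0.845 to 1.26 CPM with PgLPS (-2.56 ± 0.68, edgeR adjusted p = 0.0112). It passed the filter on low counts through the PgLPS libraries alone, so that its test against them is not independent of the filter, and the call was lost without both-agents library 1 (adjusted p = 0.0518).

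The remaining calls with both agents were less stable. Slc6a4 had 1.63 to 2.37 CPM with both agents, against 0.780 to 1.08 CPM with PgLPS (1.12 ± 0.37, edgeR adjusted p = 0.0408). The Slc6a4 call was lost without both-agents library 2 (adjusted p = 0.144), both-agents library 3 (0.0753), PgLPS library 1 (0.102), PgLPS library 2 (0.11), PgLPS library 3 (0.0597) or control library 3 (0.0504), and with no filter (0.0816). Slc7a4 had 0.347 to 0.456 CPM with both agents, against 0.0600 to 0.152 CPM with PgLPS (1.79 ± 0.60, edgeR adjusted p = 0.0444). The Slc7a4 call was lost without any 1 of the libraries with both agents (adjusted p = 0.105, 0.066 and 0.0819 for libraries 1, 2 and 3), any 1 PgLPS library (0.0659, 0.0791 and 0.157), CS-PA/CNP library 1 or 3 (0.0522 and 0.0535) or control library 2 or 3 (0.0553 and 0.0504), by DESeq2's Wald test (0.0698), with no filter (0.0816) and with only the groups compared (0.138).

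With CS-PA/CNP alone against control, 5 of the 31 genes were called higher and 3 lower by edgeR's test. That is 25.8% called, against 12.3% of all genes tested, where 6.67% were higher and 5.61% lower. The median log2 fold change was -0.01 over the 31 genes and 0.00 over all genes. Slc43a2 had 632, 601 and 601 CPM with CS-PA/CNP, against 436, 405 and 416 CPM in control, and rose by 0.55 ± 0.06 on the log2 scale without overlap (edgeR adjusted p = 1.71e-06). Slc36a1 had 62.8, 59.7 and 60.1 CPM with CS-PA/CNP, against 48.7, 45.2 and 47.6 CPM in control (0.37 ± 0.08, edgeR adjusted p = 0.00281). Slc7a7 had 20.3, 22.1 and 20 CPM with CS-PA/CNP, against 16.1, 16.4 and 17.3 CPM in control (0.32 ± 0.08, edgeR adjusted p = 0.00763). These rises were small beside those with PgLPS, except that Slc43a2 moved up with CS-PA/CNP and down with PgLPS. The fourth rise was in Slc6a12, with 0.431 to 0.625 CPM with CS-PA/CNP, against 0.0559 to 0.105 CPM in control (2.48 ± 0.60, edgeR adjusted p = 0.00879).

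Slc3a2, with 389.8, 376 and 390 CPM with CS-PA/CNP against 313, 345 and 357 CPM in control, was the last called higher. Its call (0.19 ± 0.06, edgeR adjusted p = 0.0422) was lost without any 1 CS-PA/CNP library (adjusted p = 0.146, 0.0758 and 0.15 for libraries 1, 2 and 3), control library 1 (0.244) or 2 (0.0873), PgLPS library 3 (0.0589) or both-agents library 1 (0.0553) or 3 (0.054). With scaling to library totals alone it was lost too (adjusted p = 0.1), and that scaling gave 4 genes higher and 4 lower. Among the falls, Slc1a4 had 3.75, 2.37 and 1.79 CPM with CS-PA/CNP, against 6.29, 6.33 and 5.26 CPM in control, a log2 fold change of -1.19 ± 0.24 (edgeR adjusted p = 0.00226). Slc38a2 had 147, 137 and 135 CPM with CS-PA/CNP, against 189.6, 175 and 174 CPM in control (-0.36 ± 0.09, edgeR adjusted p = 0.0124). Slc7a1 had 70.7, 56.3 and 60.1 CPM with CS-PA/CNP, against 93.3, 80.9 and 85.3 CPM in control (-0.47 ± 0.12, edgeR adjusted p = 0.0138). None of the 3 overlapped with control, and overlap was not counted over all genes. The call of Slc38a2 was lost without CS-PA/CNP library 3 (adjusted p = 0.0645) or control library 1 (0.0655), and that of Slc7a1 without CS-PA/CNP library 2 (0.0788), CS-PA/CNP library 3 (0.0659) or control library 1 (0.0745), so that 1 gene was called lower without CS-PA/CNP library 3 or control library 1. Slc7a5, with 27.7, 20.1 and 21.2 CPM with CS-PA/CNP, had an adjusted p of 0.0562. CS-PA/CNP library 1 was the high one, and without it Slc7a5 was called (log2 fold change -0.51, adjusted p = 0.00541), as it was without both-agents library 2 (0.0358), both-agents library 3 (0.0437) or PgLPS library 2 (0.0464), with library totals (0.0347), with no filter (0.0237), with only the groups compared (0.0205) and by DESeq2's Wald test (0.0377). Levels of Slc1a5 (106, 96.5 and 106 CPM), Slc6a6 (976, 946 and 894 CPM) and Slc38a1 (127, 126 and 118 CPM) did not overlap with control, yet were not called, with log2 fold changes of 0.16 ± 0.08, -0.11 ± 0.06 and -0.19 ± 0.07, although Slc38a1 was called with only the groups compared (adjusted p = 0.0311). Slc38a7, Slc38a6, Slc6a8 and Slc43a3 overlapped with control, with log2 fold changes between -0.02 and 0.13.

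Cells given both agents were also set against control, a comparison that shares the control libraries with that of PgLPS. There were 10 genes called higher and 12 lower by edgeR's test, 71.0% called against 58.0% of all genes tested, where 29.7% were higher and 28.4% lower. Scaled to library totals alone, the counts were 9 higher and 19 lower, with the median of all genes moved by -0.36 on the log2 scale. The log2 fold change was 2.15 ± 0.07 for Slc7a7 (edgeR adjusted p = 5.83e-15), 1.38 ± 0.06 for Slc3a2, 1.32 ± 0.08 for Slc36a1, 1.26 ± 0.08 for Slc7a8, 1.04 ± 0.10 for Slc38a6 and 0.62 ± 0.07 for Slc38a7. Among genes under 5 CPM, Slc6a12 (4.40 ± 0.50), Slc6a4 (2.78 ± 0.43) and Slc6a9 (1.89 ± 0.45) were called higher. Control levels of these genes were too low for that group to pass the filter on low counts alone, so these calls are not independent of it. Slc38a10 was called higher by 0.17 ± 0.06 (edgeR adjusted p = 0.0218), a call lost without control library 1 (adjusted p = 0.147), control library 3 (0.0548), both-agents library 1 (0.0576) or both-agents library 2 (0.0752), with no filter (0.0697) or with only the groups compared (0.0525), and one whose sign reversed to -0.19 with library totals. Slc1a5 stood at -0.61 ± 0.08 (edgeR adjusted p = 3.7e-06) and Slc43a2 at -0.20 ± 0.06 (adjusted p = 0.00586), so both were below control with both agents. The other genes called lower were Slc1a4, Slc38a1, Slc38a2, Slc43a3, Slc6a6, Slc6a8 and Slc7a1, with log2 fold changes between -1.08 and -0.27, together with Slc36a4 (-0.26 ± 0.09), Slc6a19 (-1.01 ± 0.35) and Slc7a4 (-2.79 ± 0.34). Levels of Slc7a4 with both agents were likewise too low for that group to pass the filter alone. The call of Slc36a4 was lost without both-agents library 2 (adjusted p = 0.063) or control library 1 (0.0819), and that of Slc6a19 without both-agents library 2 (0.0557) or control library 3 (0.0598). Slc7a5 and Slc7a6 overlapped with control and were not called (-0.07 ± 0.11 and -0.12 ± 0.08).

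The interaction asked whether CS-PA/CNP acted differently with PgLPS than without, as the log2 effect with PgLPS minus that without. By edgeR's test 6 of the 31 genes were called higher and 5 lower, 35.5% against 15.8% of all genes tested, where 7.46% were higher and 8.34% lower. With scaling to library totals alone 8 were higher and 4 lower. In all 5 lower ones the effect was positive without PgLPS and negative with it, though not each of these effects was called by itself. For Slc36a1 it was -0.38 ± 0.07 with PgLPS and 0.37 ± 0.08 without (difference -0.75 ± 0.11, edgeR adjusted p = 4.16e-05), and for Slc7a7 it was -0.30 ± 0.07 with PgLPS and 0.32 ± 0.08 without (difference -0.63 ± 0.10, adjusted p = 0.000176). Slc38a6 (difference -0.82 ± 0.14, adjusted p = 0.000229) and Slc7a8 (-0.42 ± 0.12, adjusted p = 0.0180) had positive effects without PgLPS that were not called by themselves. Slc6a12 differed by -2.86 ± 0.68 (adjusted p = 0.0058), with an uncalled -0.38 ± 0.31 with PgLPS and 2.48 ± 0.60 without.

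**Figure D5:**
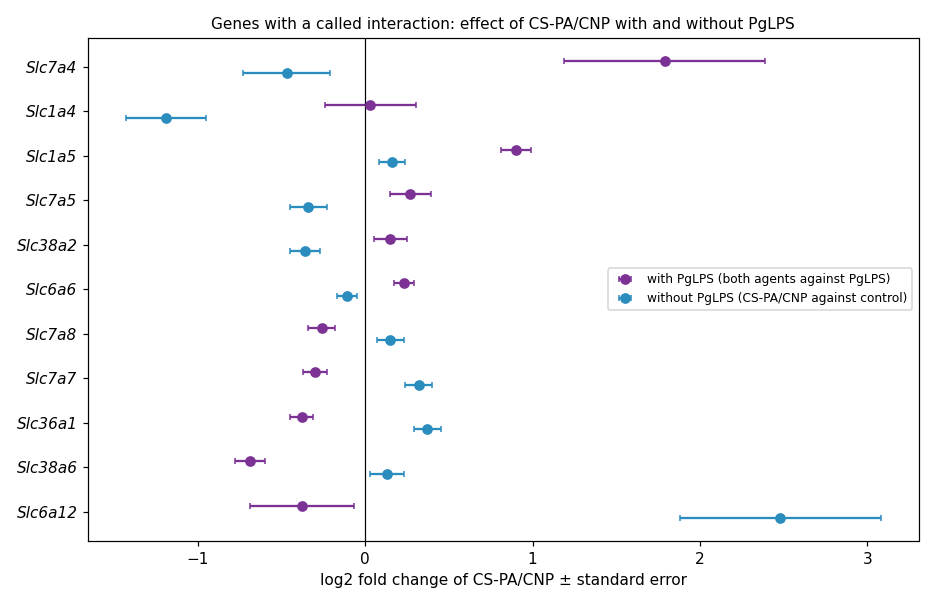
Log2 fold change of CS-PA/CNP ± standard error from edgeR for the 11 genes with a called interaction, with PgLPS (both agents against PgLPS) and without it (CS-PA/CNP against control). Slc36a1 lies at -0.38 with PgLPS and 0.37 without, and Slc1a5 at 0.90 with PgLPS and 0.16 without.

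Of the 6 higher ones, Slc1a5 had an effect of 0.90 ± 0.09 with PgLPS and 0.16 ± 0.08 without (difference 0.74 ± 0.12, edgeR adjusted p = 0.000182). In Slc7a5, Slc38a2 and Slc6a6 the effect was positive with PgLPS and negative without, at 0.27 ± 0.12 and -0.34 ± 0.11 for Slc7a5 (difference 0.61 ± 0.16, adjusted p = 0.0132), 0.15 ± 0.10 and -0.36 ± 0.09 for Slc38a2 (difference 0.51 ± 0.13, adjusted p = 0.0105), and 0.23 ± 0.06 and -0.11 ± 0.06 for Slc6a6 (difference 0.33 ± 0.09, adjusted p = 0.0103). Slc1a4 had 0.03 ± 0.27 with PgLPS and -1.19 ± 0.24 without (difference 1.22 ± 0.36, adjusted p = 0.0245), and Slc7a4 had 1.79 ± 0.60 with PgLPS and -0.47 ± 0.26 without (difference 2.27 ± 0.66, adjusted p = 0.0233). Slc43a2 rose with CS-PA/CNP in both settings, by 0.63 ± 0.06 with PgLPS and 0.55 ± 0.06 without, and the difference of 0.09 ± 0.08 (adjusted p = 0.567) was not called. The call of Slc1a4 was lost without both-agents library 2 (adjusted p = 0.0538) or 3 (0.0686), CS-PA/CNP library 2 (0.0567) or 3 (0.069) or control library 1 (0.0521) or 2 (0.0554), and that of Slc7a4 without both-agents library 1 (0.0565) or PgLPS library 3 (0.0816). The call of Slc7a8 was lost without CS-PA/CNP library 1 (adjusted p = 0.0825), control library 2 (0.0684) or control library 3 (0.0505), and with library totals (0.0793).

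Genes that work beside the carriers were taken from lists drawn up with earlier results of these data known, and are described by counts from edgeR's test. Of 21 tested genes of the ATF4 amino acid response, which cells start when amino acids run short, 7 were called higher and 11 lower with PgLPS against control, 85.7% called against 63.8% of all genes (median log2 fold change -0.28, against 0.00 over all genes). Shmt2, a mitochondrial serine and glycine enzyme, fell by 1.80 ± 0.09 on the log2 scale (adjusted p = 1.65e-12), while Mthfd2, which works next to it in the folate cycle, rose by 0.73 ± 0.06 (adjusted p = 9.66e-09). Nupr1 rose by 2.45 ± 0.13 and the transcription factor Cebpb by 2.70 ± 0.25. Between both agents and PgLPS alone, 4 were higher and 4 lower with both, 38.1% called against 19.5% of all genes, among them Atf3 at 0.62 ± 0.07, Shmt2 at 0.35 ± 0.09, Nupr1 at -0.91 ± 0.11 and Cebpb at -1.16 ± 0.23. With CS-PA/CNP alone, 1 was higher and 11 lower of the same 21 genes, or 57.1% called against 12.3% of all genes, with a median log2 fold change of -0.29. Among these the serine enzyme Psat1 averaged 34.3 ± 2.1 CPM with CS-PA/CNP and 59.2 ± 4.1 CPM in control (-0.79 ± 0.08, adjusted p = 2.2e-06), and asparagine synthetase, Asns, averaged 44.7 ± 1.7 CPM with CS-PA/CNP and 66.0 ± 3.5 CPM in control (-0.56 ± 0.08, adjusted p = 4.14e-05). In the interaction 8 of the 21 were called higher and 2 lower, 47.6% against 15.8% of all genes.

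Of 20 cytosolic aminoacyl-tRNA synthetases, which load amino acids onto tRNA, 6 were higher and 9 lower with PgLPS by edgeR's test, 75% called against 63.8% of all genes, and 2 higher and 16 lower with scaling to library totals alone. Wars, for tryptophan, rose by 0.94 ± 0.07 and Dars, for aspartate, fell by 0.82 ± 0.06. Adding CS-PA/CNP to PgLPS left 3 higher and none lower, 15% called against 19.5% of all genes, with Eprs at 0.34 ± 0.07. With CS-PA/CNP alone 1 was higher and 7 lower, 40% called against 12.3% of all genes, and 0 and 9 with library totals, the smallest adjusted p being that of Cars for cysteine (-0.39 ± 0.06, adjusted p = 0.000296). Of 36 genes of amino acid sensing by mTORC1, 6 were higher and 14 lower with PgLPS, 55.6% called against 63.8% of all genes, with a split of 1 and 29 with library totals. Sesn1, whose protein family holds leucine sensors, fell by 1.85 ± 0.11, Castor2, of the arginine sensor family, fell by 1.28 ± 0.09, and the GTPase Rragd fell by 1.79 ± 0.16, while the transcription factor Tfe3 rose by 0.70 ± 0.06. Of the 36, 5 were higher with both agents against PgLPS and none lower, 13.9% called against 19.5% of all genes, with Sesn1 at 1.07 ± 0.11 (adjusted p = 8.38e-07) and Castor2 at 0.44 ± 0.10.

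Among 18 enzymes that use glutamine, glutamate or aspartate, 1 was higher and 14 were lower with PgLPS, 83.3% called against 63.8% of all genes (median log2 fold change -0.61). Gclc, the catalytic subunit that starts glutathione synthesis, fell by 1.03 ± 0.08, CTP synthase, Ctps, by 1.36 ± 0.11, the transaminase Got2 by 0.71 ± 0.07 and the purine enzyme Pfas by 1.16 ± 0.12. With both agents against PgLPS 6 were higher and none lower, 33.3% called against 19.5% of all genes, with Gclm, the other glutathione subunit, at 1.10 ± 0.06 (adjusted p = 1.04e-10), Gclc at 0.64 ± 0.08, Ctps at 0.74 ± 0.11 and glutamine synthetase, Glul, at 0.52 ± 0.07. All 12 tested arginine and polyamine enzymes were called with PgLPS, 5 higher and 7 lower, against 63.8% of all genes. Ass1, which rebuilds arginine from citrulline, rose by 5.22 ± 0.10 and arginase, Arg1, by 5.64 ± 0.27, while spermine synthase, Sms, fell by 1.60 ± 0.07 and the creatine pathway enzyme Gatm by 1.74 ± 0.09. With both agents against PgLPS 5 were higher and 3 lower, 66.7% called against 19.5% of all genes, with the nitric oxide synthase Nos2 at -2.28 ± 0.24 and Ass1 at 0.50 ± 0.08. Of 11 enzymes of branched-chain amino acids and tryptophan, 3 were higher and 4 lower with PgLPS, 63.6% called against 63.8% of all genes, and 1 and 5 with library totals. The branched-chain kinase Bckdk fell by 0.74 ± 0.08, and 1 gene of the 11 was higher (Ivd, 0.53 ± 0.08) and 1 lower (Haao, -2.49 ± 0.71) with both agents against PgLPS, 18.2% called against 19.5% of all genes.

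Of 15 tested carriers of amino acids in other families, or left out by the rule, 7 were higher and 4 lower with PgLPS, 73.3% called against 63.8% of all genes, with a split of 5 and 7 with library totals. The lysosomal carrier Slc15a3 rose by 3.23 ± 0.06 (edgeR adjusted p = 4.76e-19), the mitochondrial glutamate carrier Slc25a22 by 1.82 ± 0.06, Slc7a2 by 6.64 ± 0.21 and the cystine exchanger Slc7a11, another CD98 light chain, by 4.57 ± 0.20. With both agents against PgLPS 2 were higher and 2 lower, 26.7% called against 19.5% of all genes, and 4 and 2 with library totals. Slc7a2 averaged 206 ± 51 CPM with both agents, a log2 fold change against PgLPS of -2.32 ± 0.16 (edgeR adjusted p = 5.71e-09), while Mfsd12, known for bringing cysteine into lysosomes, stood at 0.68 ± 0.05, Slc15a3 at -0.46 ± 0.05 and its relative Slc15a4 at 0.45 ± 0.11.

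Of the 17 genes with reads that were too few to test, some had reads that differed between groups. Slc6a17 had 1 read over the libraries with both agents, 2 over the PgLPS libraries and 16 over the control libraries, and the ratio in CPM of control over PgLPS was 6.36 (exact 95% counting interval 1.49 to 57.0). Slc7a14 had 11 reads with both agents and none with PgLPS. Setting PgLPS at 3 reads over the group, or 0.0664 CPM, gives a ratio of both agents over PgLPS of 3.50. That ratio takes the 11 reads as exact and is not a confidence limit. These genes were not tested.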

How the data were processed

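RNA sequencing of 12 libraries of mouse bone marrow-derived macrophages gave the values. The authors' deposited table gives 1 column of whole-number read counts for each library, with no normalization, for 21899 genes. Its 12 columns of the authors' FPKM values were not used. The submitters' processing notes list HISAT2 2.0.5, HTSeq 0.9.1, cutadapt 1.15 and DESeq 1.30.0, without saying what each did. No genome build, annotation or strand setting is given in the sources. Of the 62 genes, 62 had the same symbol for their Ensembl identifier in GENCODE M21.

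Counts were tested with edgeR 4.0.16 (quasi-likelihood, TMM, filterByExpr) in R 4.3.3, with all 12 libraries in 1 fit with a mean per group, for 5 comparisons. The filter kept 11656 genes. P-values were adjusted by Benjamini and Hochberg over these genes, 2-sided, with a threshold of 0.05. The quasi-likelihood fit was tested on simulated data first. Standard errors come from that fit, and levels are mean ± SD over 3 libraries. Alternatives were scaling to library totals, DESeq2 size factors, the Wald test of DESeq2 1.42.0, no filter, only the groups compared, a block for the column number, and each library left out. The genes, lists and markers were chosen with earlier results of these data known. Tested genes that average 5 CPM or more in their highest group are given library by library, and the others by their range, singly only where called. Up to 4 genes with the smallest adjusted p were named per list. The 2 genes described last were chosen after their values were seen. Withheld genes are not reported here. A gene without reads in a group was set at 3 reads over that group. Replicates were distinct: counts of 2 libraries of a group differed by a chi-square of 2.75 to 17.1 per gene, above sampling noise.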

Additional observations from a re-analysis of the deposited data

Results flagged for a closer look

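Carrier genes are listed here because CS-PA/CNP moved them by different amounts in PgLPS-treated and other cells. That difference, the log2 effect in PgLPS-treated cells less the one in other cells, passed edgeR's test in 11 of the 31 tested genes. It was 1.22 ± 0.36 for Slc1a4, 0.74 ± 0.12 for Slc1a5, 0.51 ± 0.13 for Slc38a2, 0.33 ± 0.09 for Slc6a6, 2.27 ± 0.66 for Slc7a4 and 0.61 ± 0.16 for Slc7a5. It was -0.75 ± 0.11 for Slc36a1, -0.82 ± 0.14 for Slc38a6, -2.86 ± 0.68 for Slc6a12, -0.63 ± 0.10 for Slc7a7 and -0.42 ± 0.12 for Slc7a8. For Slc1a5, Slc36a1, Slc38a2, Slc38a6, Slc6a12, Slc6a6, Slc7a5 and Slc7a7 the call held under all 17 alternatives run, including each library left out. It held under 15 of the 17 for Slc7a4, 13 for Slc7a8 and 11 for Slc1a4. Slc6a12 and Slc7a4 had few reads, with group means of at most 2.58 CPM for Slc6a12 and 2.82 CPM for Slc7a4.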

How the results depend on the processing

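Over the results of single genes, 2582 values kept their direction and side of the threshold, 77 lost a call, 53 gained one and 47 changed sign. Where the report's log2 value rounded to 0, a change of sign was counted as kept. With each library left out, Slc6a8 with CS-PA/CNP against control lay between -0.04 and 0.02. Slc7a6os with both agents against control lay between -0.06 and 0.07. The 47 belong to 21 results, of which only that of Slc38a10 with both agents against control was called in the report. With library totals, Slc38a9 and Slc38a10 turned to -0.35 and -0.32 with PgLPS against control, and to -0.28 and -0.19 with both agents against control, on the log2 scale, all 4 called. Uncalled sign changes with library totals were Slc7a3 at -0.20 with PgLPS and -0.24 with both agents against control, Slc3a2 at 0.01 with both agents against PgLPS, and Slc6a4 at 0.01 and Slc38a10 at 0.08 in the interaction. With each library left out, the uncalled log2 values that changed sign ranged as follows. With PgLPS against control, Slc7a3 lay between -0.07 and 0.56. With both agents against PgLPS, Slc1a4 lay between -0.08 and 0.22, Slc36a2 between -2.03 and 3.68, Slc7a15 between -0.74 and 0.02, Slc38a1 between -0.05 and 0.07, Slc7a3 between -0.56 and 0.19, Slc7a1 between -0.08 and 0.18, and Slc38a9 between -0.07 and 0.07. With CS-PA/CNP against control, Slc43a3 lay between -0.08 and 0.03 and Slc38a7 between -0.07 and 0.01. With both agents against control, Slc7a3 lay between -0.35 and 0.34 and Slc7a5 between -0.17 and 0.02. In the interaction, Slc36a2 lay between -3.20 and 2.50, Slc6a4 between -0.37 and 0.27, Slc7a3 between -0.14 and 0.61, and Slc38a10 between -0.04 and 0.05. Library totals raised the genes called lower with both agents against control to 19, beside 12. Genes called lower with CS-PA/CNP against control, 3 in the report, were 5 with only the groups compared, 6 with the replicate block, and 1 to 4 with each library left out. Genes called higher with both agents against PgLPS, 7 in the report, were 3 to 8 with each library left out. The cause was not tested. Over all genes, library totals moved the share of calls that were higher to 21.8%, beside 50.5%, with PgLPS against control, to 21.3%, beside 51.1%, with both agents against control, to 61.4%, beside 48.4%, with both agents against PgLPS, to 42.0%, beside 54.3%, with CS-PA/CNP against control, and to 63.7%, beside 47.2%, in the interaction.

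DESeq2's Wald test called 9 genes higher and 15 lower with PgLPS against control, 6 and 6 with both agents against PgLPS, 5 and 4 with CS-PA/CNP against control, 11 and 12 with both agents against control, and 7 and 7 in the interaction. The column numbers were not taken to pair libraries. Deviations from group means correlated between same-numbered libraries of different groups by -0.09 to 0.32 (18 pairs, mean 0.09). Between different numbers they correlated by -0.26 to 0.14 (36 pairs, mean -0.05). In 8 of 12 libraries the best correlation was with their own number. Same-numbered libraries were thus somewhat more alike on average, and the main fit has no term for the number. With the number as a replicate block, the counts higher and lower were 9 and 15, 7 and 6, 6 and 6, 10 and 13, and 9 and 7, in the order of comparisons above. The block took away the call of Slc7a4 with both agents against PgLPS (adjusted p = 0.0628) and gave one to Slc7a6 there (0.0328), and with CS-PA/CNP against control to Slc7a5 (0.0145), Slc38a1 (0.0248), Slc36a4 (0.0297) and Slc6a9 (0.0464), with both agents against control to Slc7a15 (0.0472), and in the interaction to Slc7a1 (0.000734), Slc3a2 (0.0219), Slc43a3 (0.0398), Slc7a6 (0.0401) and Slc1a2 (0.0491). Depth limits the 10 tested genes under 5 CPM and the 17 not tested.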
